A study of Rattus norvegicus with 36 samples.

Results

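Ugt2b, a UDP-glucuronosyltransferase gene, was measured by 2 of the 31042 probe sets that are not array controls, 1387825_at and 1385247_at, the 2 for which the platform annotation gives Ugt2b as the only symbol. In 3 of the 36 rat liver arrays both probe sets were far below their level in the other 33, with nothing between. An array was called low when 1387825_at, the brighter of the pair by its mean over all arrays, was below 8 log2. The low arrays are vehicle replicate 5, 0.07 mg/kg replicate 1 and 706 mg/kg replicate 3. Because these arrays were chosen by their Ugt2b values, every contrast between low and other arrays is a description with no test.

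The arrays come from male Harlan Sprague Dawley rats that were 7 weeks old at the start of dosing. Dosing was with a flame retardant, bis(2-ethylhexyl) tetrabromophthalate (TBPH), a brominated relative of the phthalate DEHP. It was prepared in corn oil and gavaged in 5 ml/kg on 5 days in a row, and RNA was taken from the left liver lobe 1 day after the last dose. There were 6 groups of 6 arrays each, namely vehicle (corn oil alone) and 5 doses of TBPH, with 0.07 mg/kg the lowest, then 0.71 and 7.06 mg/kg, then 70.6 mg/kg and 706 mg/kg the highest. The design text asks which transcripts differ between each dose and vehicle. The labels number the replicates and do not say whether 1 array stands for 1 animal, so the tests reflect the variation among these samples, which may be in part technical. Each value is a log2 RMA value, the summary of a probe set after background correction and normalization between arrays, so a difference of 1 is a 2-fold difference on the linear scale.

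UDP-glucuronosyltransferases sit in the membrane of the endoplasmic reticulum and join glucuronic acid to steroids, bile acids and drugs, which makes them more soluble in water and readier for export into bile and urine. The UGT2B enzymes are abundant in hepatocytes and conjugate many androgens and their metabolites, and in the genome the genes stand side by side in a cluster of closely related copies. RefSeq lists Ugt2b with the older name Ugt2b2, an enzyme known in the rat for conjugating androsterone, a breakdown product of testosterone. An inherited lack of androsterone conjugation has been described in Wistar rats, another outbred stock; genotype was not measured here.

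Ugt2b lies on chromosome 14 in RefSeq's gene table, and 3 members of the cluster there are shown because they share a stretch just upstream of their starts while their values across these arrays differ. The sequences are the 250 bases before each start on the plus strand of the reference assembly GRCr8, from RefSeq's promoters, at chr14:20985199-20985448 for Ugt2b, chr14:21122616-21122865 for Ugt2b15 and chr14:21208191-21208440 for Ugt2b35. They belong to the reference rat and not to the animals studied. Capitals mark the longest run of bases that all 3 hold.
Ugt2b: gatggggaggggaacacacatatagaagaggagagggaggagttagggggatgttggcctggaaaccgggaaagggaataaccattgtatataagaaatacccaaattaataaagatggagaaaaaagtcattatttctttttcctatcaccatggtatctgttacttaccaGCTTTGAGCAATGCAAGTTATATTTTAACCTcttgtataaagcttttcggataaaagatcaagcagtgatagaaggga
Ugt2b15: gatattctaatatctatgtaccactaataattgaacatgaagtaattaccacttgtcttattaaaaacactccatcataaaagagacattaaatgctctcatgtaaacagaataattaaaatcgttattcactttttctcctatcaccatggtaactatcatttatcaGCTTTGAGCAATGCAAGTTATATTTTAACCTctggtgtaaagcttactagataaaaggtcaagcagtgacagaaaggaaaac
Ugt2b35: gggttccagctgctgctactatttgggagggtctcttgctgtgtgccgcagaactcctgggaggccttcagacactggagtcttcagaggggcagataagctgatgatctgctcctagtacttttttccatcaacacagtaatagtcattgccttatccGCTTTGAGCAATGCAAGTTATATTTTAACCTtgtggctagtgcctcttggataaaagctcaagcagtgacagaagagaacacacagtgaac
The run, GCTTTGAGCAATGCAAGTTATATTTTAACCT, is 31 bases long. It lies from 78 to 48 bases before the start of Ugt2b, from 82 to 52 before Ugt2b15 and from 91 to 61 before Ugt2b35. Searched on both strands, it was found in 5 of 33469 such upstream windows (0.0149%). Of 10 UGT2 genes with a window, 4 held it, the fourth being Ugt2b37. The fifth window is that of LOC134478834, an unnamed gene 3 places before Ugt2b in RefSeq's order. A match in the letters is a description and says nothing of which factors bind there.

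On the brighter probe set the low arrays had 5.36 log2 in vehicle replicate 5, 5.11 log2 in 0.07 mg/kg replicate 1 and 5.22 log2 in 706 mg/kg replicate 3. The other 33 arrays ran from 12.62 to 13.39 log2, with a median of 13.13. The groups did not overlap, and an empty interval of 7.25 log2 separated the highest low array, at 5.36, from the lowest of the others, at 12.62 in replicate 2 at 70.6 mg/kg. The low arrays averaged 5.23 ± 0.13 log2 (SD, n = 3) and the other arrays 13.08 ± 0.20 log2 (SD, n = 33), a difference of -7.84 log2 or a 229.7-fold ratio on the linear scale. The table holds no detection call, so whether any transcript remained in the low arrays cannot be read from it.

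The dimmer probe set, 1385247_at, was not used to choose the arrays and had the same 3 arrays at the bottom. They had 2.72 log2 in vehicle replicate 5, 2.64 log2 in 0.07 mg/kg replicate 1 and 2.86 log2 in 706 mg/kg replicate 3. The other arrays ran from 8.39 to 9.91 log2 with a median of 9.58, again without overlap. The means were 2.74 ± 0.11 log2 in low arrays (SD, n = 3) and 9.30 ± 0.51 log2 in the other arrays (SD, n = 33), a difference of -6.56 log2 or 94.3-fold. The lowest of all values was 1.86 log2 and the median 5.09 log2. How far background limits this ratio was not tested. Both probe sets are annotated to 1 gene and share the RNA of each array, so they are no replicates of one another, and levels on different probe sets cannot be set against each other.

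**Figure D1:**
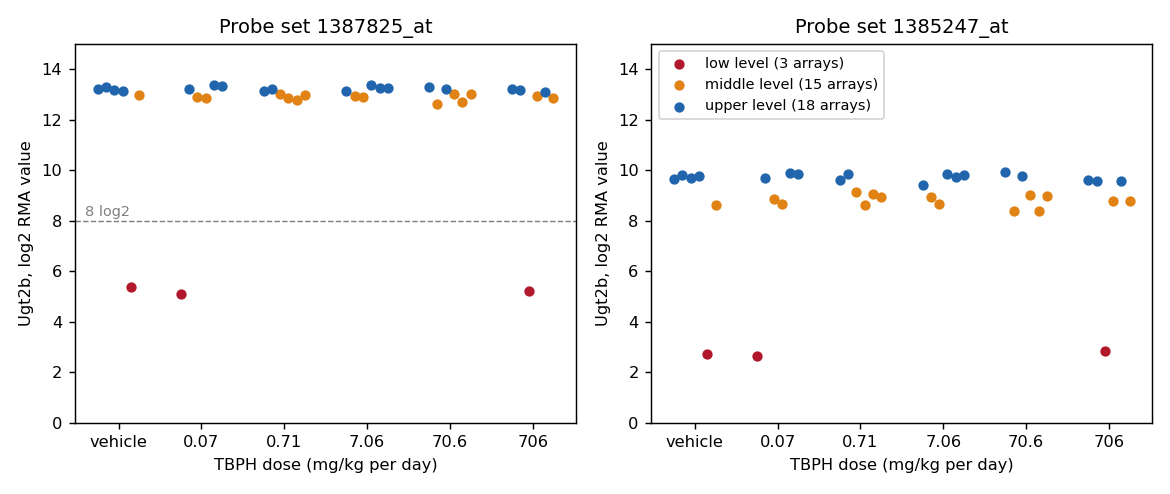
Log2 RMA value of Ugt2b in each of the 36 arrays on probe sets 1387825_at (left) and 1385247_at (right), by group from vehicle to 706 mg/kg, with replicates 1 to 6 from left to right within a group. Red points are the 3 low arrays (5.11 to 5.36 and 2.64 to 2.86 log2), orange the 15 arrays of a middle level and blue the 18 of an upper level; the dashed line is the threshold of 8 log2.

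Low arrays occurred in 3 of the 6 groups, with 1 array each in vehicle, at 0.07 mg/kg and at 706 mg/kg, and with 0 of 6 at 0.71, 7.06 and 70.6 mg/kg. An exact test of the number of low arrays over the 6 groups gave p = 1, where the smallest p that 3 low arrays allow is 0.0168. Fisher's exact test of each dose against vehicle gave a two-sided p of 1 for all 5 doses. With so few low arrays, these 5 tests could not have given a p under 0.05 wherever the low arrays fell. Over the 6 groups, only a very uneven spread of the 3 low arrays could have been detected.

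The arrays above the threshold were not all at 1 level either. On the dimmer probe set the widest interval within the 33, with 3 or more arrays on each side, lay between 9.13 and 9.40 log2 and left 15 arrays below it and 18 above. The 15 arrays of this middle level ran from 8.39 to 9.13 log2 with a median of 8.79, and the 18 of the upper level from 9.40 to 9.91 log2 with a median of 9.75. The means were 8.78 ± 0.23 log2 (SD, n = 15) at the middle level and 9.73 ± 0.14 log2 (SD, n = 18) at the upper level. The difference was -0.94 log2, which is a linear ratio of 0.52. This division was made after the values were seen and is a description with no test.

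The brighter probe set placed the same arrays on the same sides. On the brighter probe set the 15 middle arrays ran from 12.62 to 13.03 log2, with a median of 12.90, and the 18 upper arrays from 13.10 to 13.39 log2, with a median of 13.21. The interval between them was 0.07 log2, and the means differed by -0.33 log2, or 1.26-fold on the linear scale. With 3 or more arrays on each side, the widest interval of this probe set, found without the other, set apart 15 arrays. Of these, 15 were those below the interval on the dimmer probe set. Wider intervals lay among its lowest arrays, at 12.62, 12.72 and 12.80 log2, but left fewer than 3 arrays on 1 side. Of all 31042 probe sets, 2 had no overlap between the 15 middle and the 18 upper arrays (0.00644%), and both are those of Ugt2b, whose values made the division. Scaling each array to its own median kept 15 of the 15 arrays, and without the 2 arrays of high control ratio described below 13 of 13 were shared.

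**Figure D2:**
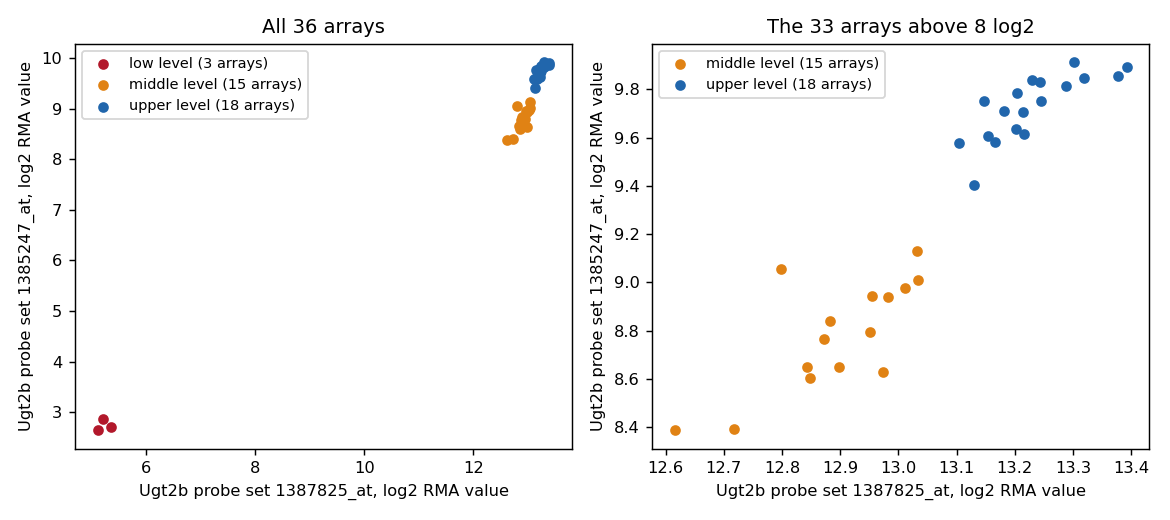
Ugt2b on probe set 1385247_at (vertical axis, log2) against 1387825_at (horizontal axis, log2), 1 point per array, for all 36 arrays (left) and for the 33 above 8 log2 (right, axes enlarged). The 3 low arrays stand apart at the lower left, and the middle and upper arrays part at 9.13 to 9.40 log2 on the vertical axis and 13.03 to 13.10 log2 on the horizontal.

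Within each level the correlation of both probe sets is given as a description. Over the 15 middle arrays Pearson's r was 0.738 and Spearman's rho 0.636. Without the 2 middle arrays farthest from the median of the brighter probe set, r over the other 13 was 0.444, so that much of the relation at the middle level rests on those 2. Over the 18 upper arrays r was 0.792 and rho 0.856. There r was 0.789 without the 2 farthest arrays. The arrays were grouped by these same values, and both measures come from 1 gene on the same hybridisation, so no p is given.

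The 3 levels were mixed within the dose groups. In vehicle there were 1 low, 1 middle and 4 upper arrays. At 0.07 mg/kg the counts were 1 low, 2 middle and 3 upper, and at 0.71 mg/kg 0 low, 4 middle and 2 upper. At 7.06 mg/kg they were 0 low, 2 middle and 4 upper, at 70.6 mg/kg 0 low, 4 middle and 2 upper, and at 706 mg/kg 1 low, 2 middle and 3 upper. Every group held both middle and upper arrays.

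No dose of TBPH was followed by a change of Ugt2b that passed the test. On the brighter probe set the lowest, median and highest of the 6 arrays were 5.36, 13.16 and 13.29 log2 in vehicle. They were 5.11, 13.05 and 13.39 log2 at 0.07 mg/kg and 12.80, 13.01 and 13.23 log2 at 0.71 mg/kg. At 7.06 mg/kg they were 12.90, 13.19 and 13.38 log2, at 70.6 mg/kg 12.62, 13.02 and 13.30 log2, and at 706 mg/kg 5.22, 13.03 and 13.22 log2. The medians of the 6 groups thus lay within 13.01 and 13.19 log2, and the ranges of all groups overlapped. On the dimmer probe set the medians were 9.67 log2 in vehicle, 9.27 at 0.07, 9.09 at 0.71, 9.58 at 7.06, 8.99 at 70.6 and 9.19 at 706 mg/kg.

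The group means on the brighter probe set were set by where the low arrays fell. At 706 mg/kg the mean was 11.75 ± 3.20 log2 and in vehicle 11.86 ± 3.18 log2 (SD, n = 6 each). In limma the dose minus vehicle difference at 706 mg/kg was -0.10 log2 with a 95% interval from -2.57 to 2.36 and an SE of 1.21 (adjusted p = 1.00). At 70.6 mg/kg, with no low array, the mean was 12.98 ± 0.27 log2 against the same vehicle mean (SD, n = 6), and the limma difference was 1.12 log2 (-1.34 to 3.59, adjusted p = 0.937). The limma differences at 7.06, 0.71 and 0.07 mg/kg were 1.28, 1.15 and -0.06 log2, each with an adjusted p of 1.00. Exact permutation tests gave p from 0.545 at 706 mg/kg to 0.931 at 0.71 mg/kg, all 0.931 after adjustment over the 5 doses. All doses were set against the same 6 vehicle arrays, so these comparisons are not independent.

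Without the 3 low arrays, left out for their Ugt2b values after the data were seen, the fits describe the arrays above 8 log2 alone. Their p and intervals are read as a description. On the brighter probe set the limma interval then narrowed about 10-fold and the difference at 3 doses turned its sign. At 706 mg/kg it was -0.10 log2 (-0.34 to 0.15, adjusted p = 0.949) and at 70.6 mg/kg -0.18 log2 (-0.41 to 0.06, adjusted p = 0.991). At 7.06, 0.71 and 0.07 mg/kg the limma differences were then -0.017, -0.15 and -0.028 log2, each with an adjusted p of 1.00. On the dimmer probe set without the low arrays they ran from -0.43 log2 at 70.6 mg/kg (-1.04 to 0.17, adjusted p = 0.991) to -0.10 log2 at 7.06 mg/kg. There the narrowing was smaller, with an SE at 70.6 mg/kg of 1.06 log2 with and 0.30 log2 without the low arrays. The bounds above leave room for a fall of 0.41 log2 on the brighter probe set at 70.6 mg/kg. They do not show that the doses and vehicle are alike.

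**Figure D3:**
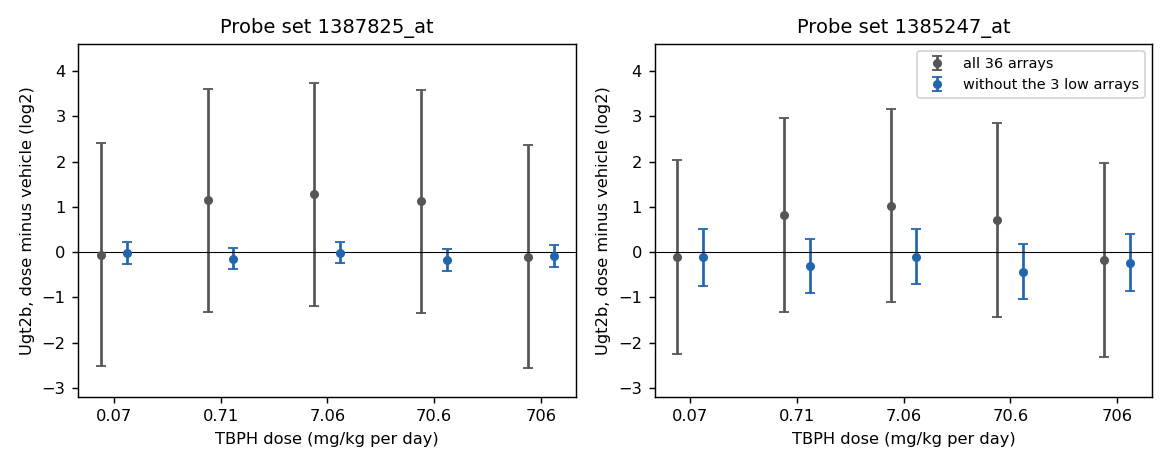
Difference in Ugt2b between each dose and vehicle (log2) with 95% intervals from limma, for probe sets 1387825_at (left) and 1385247_at (right), from 0.07 to 706 mg/kg. Grey points use all 36 arrays and blue points leave out the 3 low arrays, which were chosen by their Ugt2b values, so the blue ones are a description. Every interval includes 0, and the blue ones are narrower, as at 706 mg/kg on 1387825_at (-0.34 to 0.15 without and -2.57 to 2.36 with the low arrays).

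Over all groups the limma F test gave Ugt2b an adjusted p of 1.00 on both probe sets, and 100000 permutations of the group labels gave p = 0.915 on the brighter probe set and 0.913 on the dimmer probe set. The limma slope of the brighter probe set was 0.09 log2 per step of dose rank (adjusted p = 0.998). As a description, it was -0.023 log2 per step without the low arrays (adjusted p = 0.911). In the whole table limma called 0 of 31042 probe sets (0%) at each of the 5 doses, in the F test and in the slope. At an unadjusted p under 0.05 there were 953 probe sets at 0.07, 1235 at 0.71, 1079 at 7.06, 1626 at 70.6 and 1080 at 706 mg/kg, with 788 in the F test and 1292 in the slope. With no effect at all, a share of about 0.05 of the 31042 probe sets would lie there. Only the count at 70.6 mg/kg was above that share, and only slightly.

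The array measured 7 other UGT2 genes with a probe set of their own, and 0 of the 7 were without overlap between low and other arrays, where 0.106% of all 14217 genes were so on their brightest probe sets. A count of 0 is near that share and is no result about the family. Ugt2b15, which conjugates androgens, had 12.08, 12.22 and 12.24 log2 in the 3 low arrays and 11.75 to 12.37 log2 in the other arrays. Its difference was 0.01 log2, and the low arrays lay inside the range of the others. Ugt2b35 had 13.24 to 13.28 log2 in low arrays and 13.17 to 13.45 log2 in the other arrays, a difference of -0.04 log2. Both are the genes shown above with the run of 31 bases in common with Ugt2b.

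Ugt2b1 had the largest difference in size among them. It had 11.98 log2 in vehicle replicate 5, 11.96 log2 in 0.07 mg/kg replicate 1 and 11.60 log2 in 706 mg/kg replicate 3, against 11.87 to 12.62 log2 in the other arrays. The last of these 3 was below every other array, while 3 of the 33 other arrays lay below the highest low array. The difference was -0.40 log2. At the middle level Ugt2b1 averaged 12.10 ± 0.14 log2 (SD, n = 15) and ran from 11.87 to 12.36 log2, and at the upper level it averaged 12.38 ± 0.12 log2 (SD, n = 18) and ran from 12.11 to 12.62 log2. Neighbouring levels overlapped, and no test was made. Means in the order low, middle, upper also occurred in Ugt2b7, Ugt2a1 and Ugt2b35, but not in Ugt2b15, Ugt2b10 and Ugt2b34l1. In Ugt2b35 they were close, at 13.26, 13.28 and 13.32 log2. The share of all genes with this order is not given here, so the order is no result about the family. UGT2B genes are close copies of each other, and whether probes for Ugt2b1 also bind Ugt2b transcript was not tested.

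Ugt2b7 had 4.16 to 4.52 log2 in low arrays and 4.13 to 5.70 log2 in the other arrays, a difference of -0.33 log2. Its means were 4.36 ± 0.18 log2 in low (SD, n = 3), 4.59 ± 0.18 log2 in middle (SD, n = 15) and 4.77 ± 0.28 log2 in upper arrays (SD, n = 18). Ugt2a1, known as an olfactory form, had 5.20 to 5.35 log2 in low arrays and 4.90 to 5.67 log2 in the other arrays, with means of 5.25 ± 0.08 log2 in low (SD, n = 3), 5.29 ± 0.17 log2 in middle (SD, n = 15) and 5.48 ± 0.10 log2 in upper arrays (SD, n = 18). The differences of Ugt2b10 and Ugt2b34l1 were 0.05 and -0.03 log2, with the low arrays inside the range of the others. Of the 18 UGT2 symbols listed for this work 7 were measured, Ugt2b among them, and Ugt2b34l1 was added by its symbol; the rest were not analysed here.

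**Figure D4:**
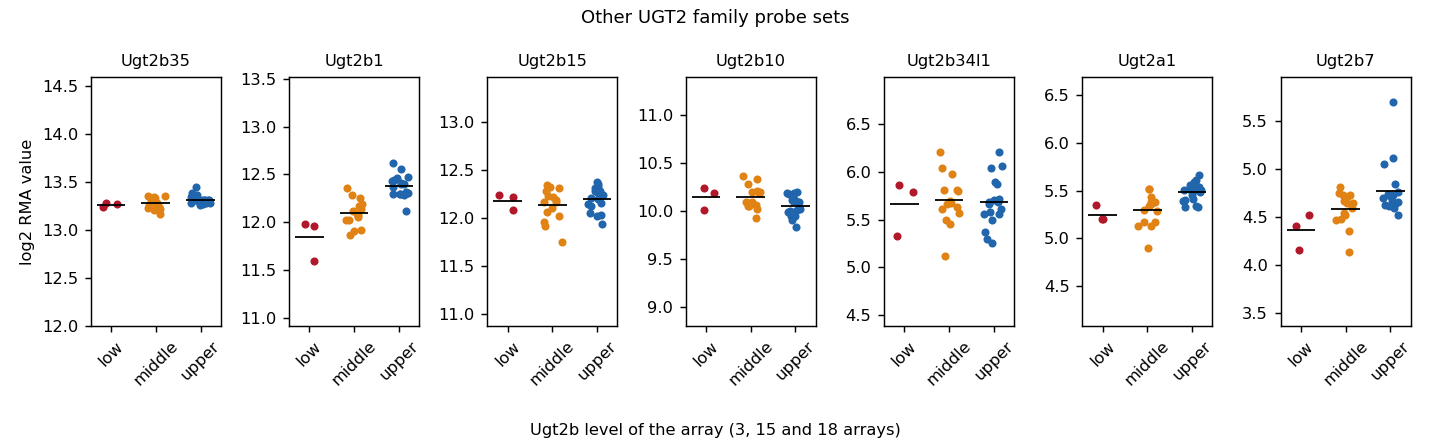
Log2 RMA values of 7 other UGT2 genes, 1 point per array, grouped by the Ugt2b level of the array (low, n = 3; middle, n = 15; upper, n = 18), with black bars for the means. Each panel spans the same number of log2 units; for each gene the low arrays overlap with the other 33 arrays as 1 set, and Ugt2b1 has means of 11.85, 12.10 and 12.38 log2.

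The neighbourhood of Ugt2b on chromosome 14 was examined through RefSeq's gene order, taking 10 genes on each side. Of these 20 genes 6 had a probe set matched by gene ID, and 0 of the 6 were without overlap between low and other arrays, again near the 0.106% of all genes. Their differences ran from -0.33 log2 in Ugt2b7 to 0.01 log2 in Ugt2b15. The sulfotransferases Sult1b1 and Sult1d1, which add sulfate in place of glucuronic acid, differed by -0.11 and 0.01 log2. Sult1e1, the oestrogen sulfotransferase 9 places before Ugt2b, was found by symbol only. It had 13.37, 13.40 and 13.50 log2 in low arrays and 12.93 to 13.42 log2 in the other arrays, a difference of 0.23 log2 with overlap.

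Few other probe sets separated the low arrays from the rest. Of 31042 probe sets 24 were without overlap (0.0773%), and 10 of these were lower in the low arrays (0.0322%). With a difference of 0.5 log2 or more there were 5 (0.0161%) and with 1 log2 or more 3 (0.00966%), of which 2 are those of Ugt2b. The third, 1378163_at, has no single gene symbol. It had 5.82 to 5.89 log2 in low arrays and 5.97 to 7.98 log2 in the other arrays, a difference of -1.06 log2. With 2 log2 or more the 2 probe sets of Ugt2b were left (0.00644%). Since 3 arrays were set against 33 in each of so many probe sets, single separations of this kind carry no weight as findings about the low arrays.

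**Figure D5:**
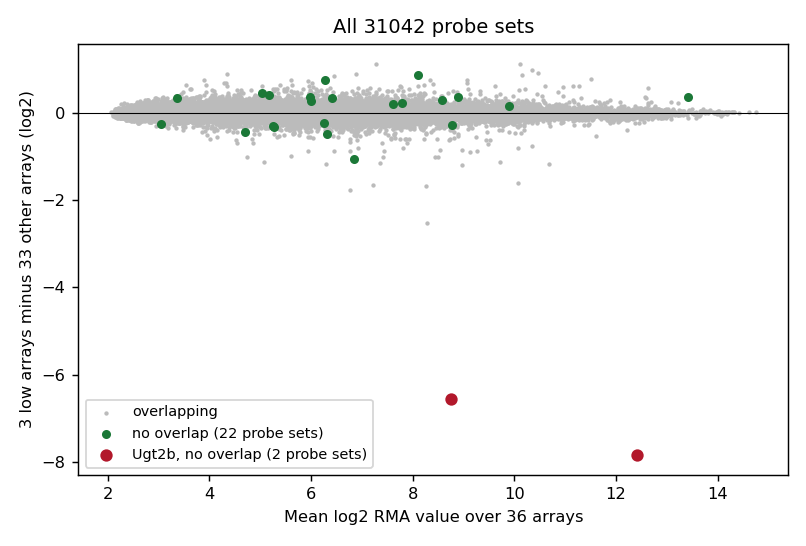
Mean of the 3 low arrays minus mean of the 33 other arrays (vertical axis, log2) against the mean over all 36 arrays (horizontal axis, log2), 1 point per probe set for 31042 probe sets. Red points are Ugt2b at -7.84 and -6.56 log2, green points the other 22 probe sets without overlap between low and other arrays, and grey points all others.

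By likeness to the pattern of Ugt2b, taken as the low minus other difference over the pooled SD within both sets of 3 and 33 arrays, Ugt2b itself stood at -40.9 on the brighter probe set and -13.2 on the dimmer probe set. The next gene was Atp2c1, a calcium and manganese pump of the Golgi, at -2.97, with 4.84 to 5.06 log2 in low arrays and 5.12 to 5.53 log2 in the other arrays. Enpep, the aminopeptidase that cleaves angiotensin, followed at -2.69, and Usp9x, a deubiquitinase, at -2.56. The remaining 7 of the 10 most alike, Cmip, C9h6orf226, Shank3, Il1r1, Tp53i13, Arhgap42 and Anxa6, lay between -2.50 and -2.35. Il1r1, the interleukin-1 receptor, had the largest difference in log2 among the 10, with 7.31 to 7.94 log2 in low arrays and 7.72 to 8.78 log2 in the other arrays, or -0.60 log2. In the opposite direction stood Creb1, a transcription factor that answers to cyclic AMP, at 2.70, then Gnpnat1, an enzyme of amino sugar synthesis, at 2.62 and Znf750 at 2.57. Creb1 had 3.05 to 3.46 log2 in low arrays and 2.78 to 3.22 log2 in the other arrays, with overlap. Its values lay below 5.09 log2, the median of all values.

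Of 10 measured genes that supply UDP-glucuronic acid or split glucuronides 0 were without overlap between low and other arrays. Gusb, the lysosomal enzyme that removes glucuronic acid, had the largest difference at -0.13 log2, with 8.58 to 8.77 log2 in low arrays and 8.58 to 8.94 log2 in the other arrays. Of 16 sulfo-, methyl- and acetyltransferases, 17 glutathione transferases and 19 cytochromes P450 of drug metabolism 0 were without overlap, beside 0.106% of all genes, so these counts say nothing particular about the lists. The median low minus other differences were 0.02, -0.07 and 0.03 log2 for these lists and -0.01 log2 over all genes. Of the UGT1, UGT3 and UGT8 list, only Ugt8, which acts on lipids of myelin, had a probe set with a single symbol. It differed by -0.17 log2, with 2.82 to 2.98 log2 in low arrays and 2.67 to 3.52 log2 in the other arrays. Probe sets with several symbols were left out of the lists.

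UGT2B enzymes handle steroids and bile acids. Of 17 measured genes of androgen and steroid metabolism 0 were without overlap, beside 0.106% of all genes, and the median difference was 0.02 log2. Hsd17b2, which inactivates testosterone and oestradiol, had 9.56 to 9.92 log2 in low arrays and 9.38 to 11.06 log2 in the other arrays. Rdh16, a retinol and steroid dehydrogenase, differed by -0.25 log2 with overlap. Of 20 genes of bile acid metabolism and of transport of bile acids and glucuronides 0 were without overlap, with a median difference of -0.05 log2. Cyp7a1, which opens the main route from cholesterol to bile acids, had 10.74, 10.99 and 11.62 log2 in low arrays and 8.56 to 11.61 log2 in the other arrays, a difference of 1.10 log2. The low arrays lay in the upper part of a wide range.

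Growth hormone pulses set much of the male pattern of rat liver. Of 22 measured genes of sex bias or growth hormone response 0 were without overlap, beside 0.106% of all genes, and the median difference was 0.02 log2. Cish, an induced inhibitor of cytokine signalling, had 5.63, 5.66 and 5.79 log2 in low arrays and 5.26 to 8.28 log2 in the other arrays with a median of 7.70, a difference of -1.67 log2. Cyp2c12, a steroid hydroxylase known for its female bias, had 11.53 to 11.82 log2 in low arrays and 9.78 to 11.72 log2 in the other arrays, a difference of 0.61 log2. Cyp2c11, the main male-specific P450, differed by 0.09 log2. Of 22 measured regulators of UGT2B genes 0 were without overlap and the median difference was -0.02 log2. Their list mean was 7.20 to 7.41 log2 in low arrays and 7.23 to 7.62 log2 in the other arrays, so the lowest value was that of a low array. Onecut1, also called HNF6, had 7.21 to 7.87 log2 in low arrays and 6.32 to 10.55 log2 in the other arrays, a difference of -1.02 log2. Foxa2 had 7.98 to 8.33 log2 in low arrays and 7.82 to 9.63 log2 in the other arrays, a difference of -0.86 log2.

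The tissue markers were those of liver in the low arrays. The mean of 15 hepatocyte markers was 13.51 to 13.52 log2 in low arrays and 13.38 to 13.54 log2 in the other arrays. Alb, serum albumin, had 14.75 to 14.77 log2 in low arrays and 14.73 to 14.77 log2 in the other arrays, and the largest differences of the list were 0.56 log2 in Pck1 and 0.42 log2 in Tat, both enzymes that rise in fasting. Of 7 cholangiocyte, 12 macrophage, 10 sinusoidal endothelial and 14 stellate cell markers 0 were without overlap, beside 0.106% of all genes. Their list means were 5.12 to 5.26, 8.63 to 8.88, 7.58 to 7.75 and 6.89 to 7.03 log2 in low arrays, each inside the range of the other arrays. The same held for 13 lymphocyte, 8 neutrophil and monocyte, 7 erythroid and 20 pancreas, gut, kidney, fat and muscle markers, with list means of 4.63 to 4.70, 3.79 to 3.98, 5.72 to 5.89 and 4.38 to 4.51 log2 in low arrays. In bulk liver fewer cells that express a gene and less RNA per cell cannot be told apart.

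Measures of the hybridisations were as follows. The low arrays' medians over all probe sets were 5.08 to 5.13 log2 and those of the other arrays 5.06 to 5.14 log2. The difference between the control probe sets at the 3′ and the 5′ end of Gapdh, which grows as RNA is degraded, was -0.16 to -0.10 log2 in low arrays and -0.18 to 0.41 log2 in the other arrays. The mean correlation of an array with all others across probe sets, which are not independent replicates, was 0.9936 to 0.9946 in low arrays and 0.989 to 0.995 in the other arrays. The first principal component was taken over all probe sets, those of Ugt2b included. Its scores were -14.7 to -9.53 in low arrays and -12.6 to 37.5 in the other arrays. The low arrays thus lay at its lower end, with 706 mg/kg replicate 3 below every other array. The part of this in the values above was not tested. The 2 arrays of high control ratio, 70.6 mg/kg replicate 5 and 0.07 mg/kg replicate 4, were both at the middle level of Ugt2b.

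Splits of this kind were rare in the table. A gap of 2 log2 or more with 3 or more arrays on each side occurred in 6 of 31042 probe sets (0.0193%), which include the 2 of Ugt2b. Abhd3, an enzyme that cleaves phospholipids, had 8 arrays above and 28 below a gap from 3.35 to 7.16 log2 on 1382137_at. Of the 3 arrays low in Ugt2b, 0.07 mg/kg replicate 1 was high on this Abhd3 probe set at 7.80 log2. Vehicle replicate 5 and 706 mg/kg replicate 3 were low on it at 2.86 and 3.04 log2. Of the 15 middle arrays 6 were high on it, and of the 18 upper arrays 1 was. Another probe set of Abhd3 had no gap of 2 log2 or more. It had 3.11 to 3.73 log2 in the arrays low in Ugt2b and 2.79 to 3.86 log2 in the other arrays. The split of Abhd3 was thus seen on 1382137_at and not on that other probe set. RT1-Ba, a class II histocompatibility gene, and Ubd, a ubiquitin-like gene induced by interferon, each had 3 arrays below their gap, and 0 of these were low in Ugt2b. The sixth probe set, 1370428_x_at, carries several symbols or none and had 12 arrays below its gap, 1 of them low in Ugt2b. The arrays that were low in Ugt2b were thus not the same as those set apart by the other probe sets.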

How the data were processed

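The authors deposited 1 table of log2 values, made with RMA from the affy package per the submitters' processing notes, which give no versions; a genome build is not given in the sources used here. After removal of 57 controls of the array, 31042 probe sets were used. The platform annotation gave 1 symbol for 20826, several for 436 and none for 9780, and only single symbols were named. In the gene lists and the counts over all genes, a gene with several probe sets was described by the brightest. The likeness ranking, the neighbours and the counts over probe sets took each probe set by itself. Arrays give no read depth, so their number limits precision.

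Each dose was compared with vehicle in limma (3.58.1, R 4.3.3), fitting the 6 group means to all 36 arrays, two-sided, with Benjamini-Hochberg adjustment over all probe sets at 0.05, in place of R/maanova, which the design text names. The code was tested on simulated data. Permutation and exact tests used SciPy 1.17.1 in Python 3.11.15.

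Members and the 19 gene lists were chosen with earlier results of these data known. The genes named are the UGT2 family, probe sets without overlap and 1 log2 apart, the 10 most like Ugt2b and 3 most opposite, measured neighbours, the 2 members per list with the largest differences, and Abhd3; other genes were picked after their values were seen. On average same-numbered replicates did not deviate together, with a mean r of -0.016 over 90 pairs. Single pairs ran from -0.41 to 0.27, and the mean r over 450 pairs of unlike number was 0.0034.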

Additional observations from a re-analysis of the deposited data

Results flagged for a closer look

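Within groups of 6 arrays, 54 combinations of a UGT2 probe set and a group were checked for a single array far from the rest, by the gap to its nearest neighbour as a share of the group's range. Of these 10 stood out.

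In 6 of the 10 the array was 1 of the 3 low in Ugt2b, which were chosen by these values, so their standing out is no evidence. On the brighter Ugt2b probe set the gap was 0.957 of the range for replicate 3 at 706 mg/kg (5.22 log2, next array 12.87), 0.934 for replicate 1 at 0.07 mg/kg (5.11, next 12.84) and 0.96 for replicate 5 of vehicle (5.36, next 12.97). On the dimmer one it was 0.875, 0.829 and 0.833 for the same arrays in that order.

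The other 4 were smaller in log2, and chance alone sets apart an array in about 1 in 20 such groups. Ugt2b7 was high in replicate 1 at 706 mg/kg (5.70, next 4.81 log2, gap 0.689 of the range). Ugt2b15 was low in replicate 5 at 706 mg/kg (11.94, next 12.16 log2, gap 0.688) and in replicate 3 at 0.07 mg/kg (11.95, next 12.22 log2, gap 0.653). Ugt2b35 was high in replicate 2 of vehicle (13.45, next 13.31 log2, gap 0.678). None of these 4 arrays was low in Ugt2b.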

How the results depend on the processing

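Of 156 alternatives other than leaving out 1 array, 149 kept direction and call or, for a count, stayed near the reported count. Limma called 0 probe sets in all 128 comparisons counted, the reported ones and leave-one-out included. Many of these comparisons came from the same fit or shared arrays. The Ugt2b difference turned to 0.65 log2 at 706 mg/kg with array weights. Without the 3 low arrays, a setting chosen after seeing the data, it turned to -0.18, -0.017 and -0.15 log2 at 70.6, 7.06 and 0.71 mg/kg, and the slope to -0.023 log2 per dose step. The number of probe sets without overlap between low and other arrays was 5 at 0.5 log2 or more, which adds Id4 (0.86 log2) and Znf750 (0.75 log2), and 6 with 1 array allowed to overlap. It was 2 when the size came from a fit with dose group and low as terms, so that 1378163_at dropped out. Leaving out each array in turn, the difference ran from -1.40 to 1.20 log2 at 706, from -0.18 to 1.41 at 70.6, from -0.017 to 1.57 at 7.06, from -0.15 to 1.43 at 0.71 and from -1.36 to 1.27 at 0.07 mg/kg. Leaving out vehicle replicate 5 gave the lower end at all 5 doses, and leaving out the low array of the dose, replicate 3 at 706 or replicate 1 at 0.07 mg/kg, the upper end at those 2. With the replicate number as a block the differences stayed at -0.10, 1.12, 1.28, 1.15 and -0.06 log2 from 706 down to 0.07 mg/kg. There were 0 calls, and the labels do not say whether the numbers pair the samples. With the low arrays in the fit the SE of a dose difference was 1.21 log2 for Ugt2b, where its median over all probe sets was 0.0845 log2.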
